A study of Mus musculus with 24 samples.

Results

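Cd24a encodes the mouse form of CD24, also called heat-stable antigen. Its transcript was read by 1 probe set, the single one of the 35556 on the array whose only gene symbol is Cd24a, so it is 1 of the 19938 genes that could be tested. The gene was selected on its level over the 8 groups of arrays and on its place among all genes for the difference between genotypes, and those differences are therefore given below as a description, without a test. The arrays measured RNA, and no surface protein was measured.

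The study profiled CD4 T cells from Batf1/3DKO mice, which lack the transcription factors Batf and Batf3 (DKO below), and from wild-type mice of the 129SvEv strain (WT below). The DKO arrays carry the same strain label. Each genotype was sampled as naive, unstimulated cells (day 0), after 2 days of culture, and after 4 days of culture with 2.2 or 10 ng/ml of soluble anti-CD3e, an antibody that triggers the T cell receptor. Cultures also received anti-CD28, crosslinked by an antibody bound to the plate, under conditions that favour TH2 cells. The anti-CD3e dose of the day 2 cells is not given in the labels. Every group had 3 arrays, 24 in all. The labels do not say whether these came from separate mice or cultures, so the errors and p-values below measure the spread between samples, which may be technical.

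CD24 is a very short protein that carries many mucin-type O-linked and other sugars and is held in the membrane by a glycosylphosphatidylinositol (GPI) anchor. It is abundant on immature thymocytes, B cells, red cell precursors and granulocytes, and mature resting T cells carry little of it. It has no cytoplasmic part and is known to act through Src-family kinases, and its sugars are bound by P-selectin and by Siglec-G, an inhibitory receptor whose human counterpart is Siglec-10. Batf is a basic leucine zipper factor that binds DNA together with Irf4 at composite elements in activated T cells, and both genes are induced through the T cell receptor.

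The values are robust multi-array average (RMA) intensities on a linear scale. As a guide to background, 28.6 was used, the middle of the average levels of all probe sets. This is no detection call. Within a group, log2 values of any 2 arrays correlated at 0.983 to 0.992. All 11 measured T cell markers, among them Cd3e and Cd4, lay above the guide in every group. Batf lay between 26.7 and 52.1 on the DKO arrays, against 114 to 1696 on the WT arrays, without overlap in any state. Whether its probes lie in the deleted part is not stated in the labels. The WT array 2.2 ng/ml replicate 3 held Irf4 at 588 and the other arrays of its group held it at 338 and 267.

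In DKO cells Cd24a stayed near background in 3 of the 4 states. Naive DKO cells gave 17.8, 16.3 and 12.6, and at day 2 DKO cells gave 21.9, 29.5 and 24.02. At day 4 with 2.2 ng/ml the DKO arrays read 9.18, 37.1 and 17.5, and with 10 ng/ml they read 47.6, 51.0 and 73.4. The 10 ng/ml arrays were the only DKO group with all 3 arrays above the guide; in the other groups 1 array of day 2 and 1 of 2.2 ng/ml exceeded it.

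In WT cells Cd24a went through a large induction. Naive WT cells gave 20.2, 29.2 and 19.4, at background. The day 2 arrays gave 316, 146 and 98.3, the widest spread of a WT group on the log2 scale. At day 4 with 2.2 ng/ml the WT arrays reached 1202, 1201 and 1481, and with 10 ng/ml they read 691, 658 and 836. The highest WT values thus came at the lower dose, and each of those 3 arrays lay above each of the 3 arrays at 10 ng/ml.

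**Figure D1:**
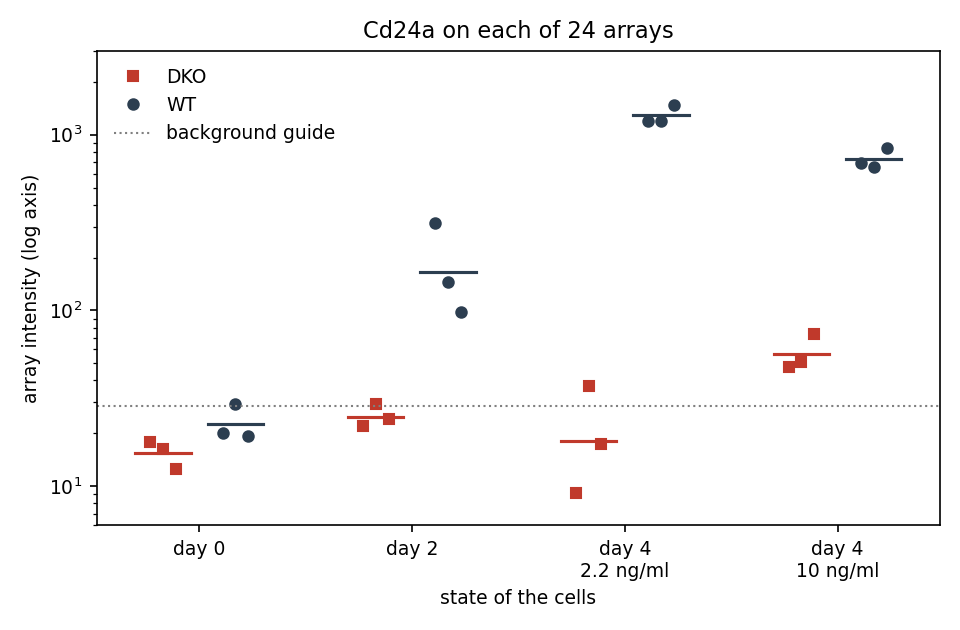
Cd24a intensity (log axis) on each of the 24 arrays by state, with DKO arrays as red squares left of WT arrays as dark circles; bars are means of log2 values and the dotted line is the background guide of 28.6. The WT arrays at 2.2 ng/ml lie highest, at 1201 to 1481, and the DKO arrays of day 0, day 2 and 2.2 ng/ml lie about the guide.

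By group mean the order from the top was WT with 2.2 ng/ml (1294 ± 161, SD, n = 3 here and below), WT with 10 ng/ml (728 ± 94.9), WT at day 2 (187 ± 115) and DKO with 10 ng/ml (57.4 ± 14.0). DKO at day 2 (25.1 ± 3.90), naive WT (23.0 ± 5.46), DKO with 2.2 ng/ml (21.2 ± 14.3) and naive DKO (15.6 ± 2.70) followed. Neighbours in the first 5 places of this order did not overlap on any array. From DKO at day 2 downward each group overlapped the next, so neighbours among these 4 could not be ordered. These are bulk samples, in which fewer cells that carry the transcript and less transcript per cell cannot be told apart.

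Between genotypes, every DKO array lay below every WT array of the same state, at day 0 included. Naive DKO cells differed from naive WT cells by -0.55 ± 0.36 on the log2 scale (SE of the fit, here and below), or 1.46-fold lower with a 95% interval of 0.875 to 2.45. That interval includes no difference. At day 2 the DKO level was 6.64-fold lower (3.97 to 11.1; log2 difference -2.73 ± 0.36), with 2 of the 3 DKO arrays below the guide. WT day 2 replicate 1, the array at 316, carried part of this: without it the difference was -2.26, or 4.80-fold.

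As measured, the difference was largest at day 4 with 2.2 ng/ml, where Cd24a in DKO cells was 71.0-fold lower than in WT cells (42.5 to 118.8; log2 difference -6.15 ± 0.36). With 10 ng/ml it was 12.9-fold lower (7.69 to 21.5; log2 difference -3.69 ± 0.36). At the lower dose 2 of the 3 DKO arrays lay at or below the background guide, so this ratio rests on readings at background. Leaving out DKO replicate 1, at 9.18, gave 50.6-fold, and leaving out DKO replicate 2, at 37.1, gave 101.6-fold. Without WT replicate 3 at 2.2 ng/ml the ratio was 66.3-fold. In an alternative chosen after seeing the data, every value below the guide was set to the guide, and naive cells then differed by -0.011, day 2 cells by -2.52 (5.73-fold) and cells with 2.2 ng/ml by -5.37 (41.3-fold), while the value for 10 ng/ml stayed at -3.69.

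Among all 19938 genes, ordered from the most negative DKO minus WT difference, Cd24a held place 66 at day 0, 8 at day 2, 1 at day 4 with 2.2 ng/ml and 26 at day 4 with 10 ng/ml. With values below the guide set to it, these places were 4623, 4, 2 and 18, and at 2.2 ng/ml Batf (-5.53) stood before Cd24a. The first place therefore rests on DKO readings below the guide. As background, the tests over all genes (limma, Benjamini-Hochberg adjusted p under 0.05) called 0.01% of genes lower and 0.0552% higher in naive DKO cells. They called 1.68% lower and 1.03% higher at day 2. With 2.2 ng/ml 2.06% were called lower and 1.65% higher, and with 10 ng/ml 6.09% lower and 6.68% higher. DKO minus WT differences of -4 or below on the log2 scale were held by 7 genes at 2.2 ng/ml, Cd24a among them, and by 20 genes at 10 ng/ml, without Cd24a.

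**Figure D2:**
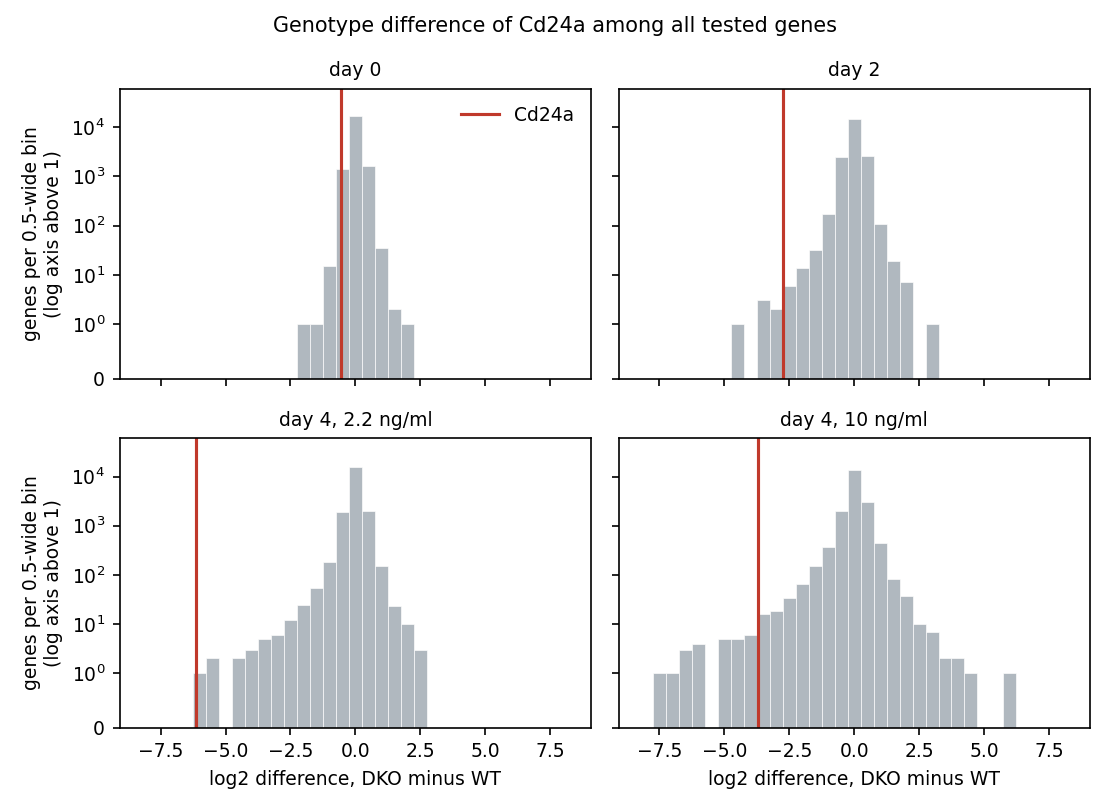
Number of genes (log axis above 1) by log2 difference, DKO minus WT, in bins 0.5 wide, for each state, with Cd24a as a red line. Cd24a lies at -0.55 at day 0, -2.73 at day 2, -6.15 at 2.2 ng/ml, where no gene lies below it, and -3.69 at 10 ng/ml, where 25 genes do.

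The genes beside it in these orders, among named genes above the background guide in at least 1 group, give the scale. With 2.2 ng/ml Cd24a was followed by Batf itself (-5.56 ± 0.16), by the anti-inflammatory cytokine gene Il10 (-5.56 ± 0.26) and by the stress response gene Ier3 (-4.40 ± 0.34). At day 2 the 3 genes just above were Inhba, a subunit of activins (-2.99), the fatty acid desaturase Scd1 (-2.78) and Il10 (-2.73), and the 3 just below were the retinol-binding protein receptor Stra6 (-2.51), the TH2 cytokine gene Il13 (-2.33) and the repressor Bhlhe40 (-2.30). With 10 ng/ml it stood between the leukotriene receptor Cysltr1 (-3.89), Frmd4b (-3.85) and the small GTPase Gem (-3.81) on one side, and the proton-sensing receptor Gpr65 (-3.68), the inhibitory receptor Ctla4 (-3.68) and the IL-12 receptor chain Il12rb2 (-3.59) on the other. In naive cells its neighbours Cpeb2, Ciart, Lyrm9, Pvt1, Ankrd35 and Efcab2 all lay between -0.56 and -0.54.

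Changes within a genotype were tested, on the same arrays that the differences above rest on. Since the gene was selected on these levels, the p-values of Cd24a here and below are not independent of that choice. The naive levels of both genotypes lay mostly below the guide, so folds over them rest on readings at background. In WT cells Cd24a rose at every step away from the naive state. It was 7.34-fold higher at day 2 than at day 0 (adjusted p = 4.46e-07, limma over all genes here and below), 57.1-fold higher with 2.2 ng/ml at day 4 (34.1 to 95.5; adjusted p = 3.49e-12; 53.3-fold without WT replicate 3 at that dose) and 32.1-fold higher with 10 ng/ml (19.2 to 53.7; adjusted p = 3.87e-11). Of all genes, 19.7%, 16.1% and 18.4% were called higher in these 3 WT comparisons, in that order. Larger positive differences than that of Cd24a were held by 3 genes with 2.2 ng/ml and by 32 with 10 ng/ml. Without WT day 2 replicate 1 the rise to day 2 was 5.31-fold. With values below the guide set to it, the 3 WT rises were 5.74-fold, 44.7-fold and 25.1-fold (adjusted p from 1.45e-10 to 1.56e-06).

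The WT level went on rising after day 2. It was 7.78-fold higher at day 4 with 2.2 ng/ml than at day 2 (adjusted p = 5.45e-06; 7.26-fold without WT 2.2 ng/ml replicate 3), the 5th largest positive difference among all genes, of which 4.74% were called higher. With 10 ng/ml it was 4.38-fold higher than at day 2 (adjusted p = 7.29e-05), where 10.3% of genes were called higher. Without WT day 2 replicate 1 these 2 folds were 10.8 and 6.05.

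In DKO cells 1 of the 3 departures from the naive state passed the test. Cd24a rose 3.66-fold with 10 ng/ml at day 4 (2.19 to 6.11; adjusted p = 0.000194), where 16.4% of genes were called higher. With values below the guide set to it this rise was 1.97-fold (adjusted p = 0.0137). The log2 change was 0.69 ± 0.36 at day 2 (adjusted p = 0.171; 15.3% of genes called higher) and 0.24 ± 0.36 at day 4 with 2.2 ng/ml (adjusted p = 0.748; 11.6% called higher). Fitted on the naive and day 2 DKO arrays alone, the day 2 change passed (adjusted p = 0.0091). Against DKO day 2, the log2 change was -0.46 ± 0.36 with 2.2 ng/ml (adjusted p = 0.575; 2.43% of genes called lower) and 1.17 ± 0.36 with 10 ng/ml (adjusted p = 0.0585; 3.43% called higher).

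The rise of the naive to day 2 step was smaller in DKO than in WT cells by 2.18 ± 0.51 on the log2 scale, given as a description since it holds the genotype difference. Without WT day 2 replicate 1 it was smaller by 1.71.

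The 10 ng/ml arrays lay above the 2.2 ng/ml arrays in DKO cells and below them in WT cells. In DKO cells the 10 ng/ml arrays (47.6, 51.0 and 73.4) all lay above the 2.2 ng/ml arrays (9.18, 37.1 and 17.5), a 3.11-fold rise (1.86 to 5.19; log2 1.63 ± 0.36, adjusted p = 0.00386), in a comparison that called 4.47% of genes higher. Without DKO 2.2 ng/ml replicate 1 the log2 rise was 1.14 and no longer passed (adjusted p = 0.0506), and with values below the guide set to it, it was 0.85 (adjusted p = 0.0867). In WT cells the 10 ng/ml arrays (691, 658 and 836) all lay below the 2.2 ng/ml arrays (1202, 1201 and 1481), 1.78-fold lower (1.06 to 2.97; log2 -0.83 ± 0.36). This WT difference did not pass in the fit over all groups (adjusted p = 0.14) and passed when the 6 arrays were fitted alone (adjusted p = 0.00575). The log2 SD was 0.18 and 0.17 in these WT groups, against 1.01 in DKO with 2.2 ng/ml and 0.86 in WT at day 2, which enter the shared error. Without WT 2.2 ng/ml replicate 3 the difference was -0.73 (adjusted p = 0.308). In the fit over all groups 7.52% of genes were called lower and 7.64% higher at 10 ng/ml in WT cells. The DKO change between doses exceeded the WT change by 2.46 ± 0.51 on the log2 scale, which is again a description, and by 1.68 with values below the guide set to it. Of all genes, 6.94% had a dose change and 1.05% a day 2 change that differed between genotypes by the same test (adjusted p under 0.05).

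In WT cells neither Batf nor Irf4 was lower at 10 than at 2.2 ng/ml, unlike the Cd24a arrays. That WT difference in Cd24a missed the test in the fit over all groups (adjusted p = 0.14). Batf in WT cells averaged 135 ± 20.9 at day 0, 722 ± 137 at day 2, 1509 ± 125 with 2.2 ng/ml and 1595 ± 99.8 with 10 ng/ml, and the last 2 groups overlapped (log2 difference 0.08 ± 0.16, adjusted p = 0.827). Irf4 averaged 1304 ± 101 in WT cells with 10 ng/ml, against 398 ± 169 with 2.2 ng/ml, a 3.46-fold rise (adjusted p = 1.17e-06; log2 1.79, and 2.11 without WT 2.2 ng/ml replicate 3). At the lower dose in WT cells Irf4 was thus lower, while all Cd24a arrays were higher. In DKO cells with 10 and 2.2 ng/ml Irf4 was 896 ± 68.4 and 350 ± 68.7, a 2.59-fold rise (adjusted p = 0.000105). Batf on the DKO arrays read 46.5 ± 4.87 and 32.2 ± 4.99 at these doses, a 1.45-fold rise (adjusted p = 0.0307). Both thus read higher at 10 ng/ml in DKO cells, as did Cd24a, whose call was lost in 2 of 17 alternatives. At 2.2 ng/ml the DKO readings of Batf, a gene these mice lack, lay close to the guide. Between genotypes Irf4 at 2.2 ng/ml was 350 ± 68.7 in DKO and 398 ± 169 in WT cells, with overlapping arrays (log2 difference -0.12 ± 0.21, adjusted p = 0.923), at the dose where Cd24a differed most. Batf3 averaged 146 ± 32.8 in WT cells with 10 ng/ml, against 28.9 ± 5.15 with 2.2 ng/ml, and the highest other group mean was 35.8.

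Over the 24 arrays, log2 Cd24a correlated with log2 Batf at a Pearson r of 0.915, with Batf3 at 0.563 and with Irf4 at 0.528. Over the 12 WT arrays the values were 0.970 for Batf, the highest of 11015 genes considered, 0.341 for Batf3 and 0.720 for Irf4. These are descriptions of arrays that were normalized together and fall into 8 groups, and the median r over all genes considered was 0.03.

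The 10 genes most like Cd24a over the 24 arrays were Il10 (r = 0.949), Cyp11a1 (0.945), Gstk1 (0.922), Batf (0.915), Nts (0.909), Ier3 (0.902), S100a6 (0.896), Epas1 (0.887), Dock5 (0.886) and Cyb5a (0.883). These r values hold the genotype difference on which Cd24a was selected. Over the WT arrays alone Batf, Epas1 and Il10 ranked 1, 2 and 5, and the others from 28 (Gstk1) to 230 (Nts). Cyp11a1 encodes the enzyme of the first step of steroid synthesis, Gstk1 a glutathione transferase, Nts the peptide neurotensin, S100a6 a calcium-binding protein, Epas1 the hypoxia-inducible factor HIF-2alpha, Dock5 an exchange factor for Rac and Cyb5a cytochrome b5. Only 3 of the 10, Epas1, S100a6 and Cyb5a, shared with Cd24a a lower WT mean at 10 than at 2.2 ng/ml. Epas1 in WT cells averaged 449 ± 68.2 with 10 ng/ml, against 1314 ± 407 with 2.2 ng/ml. S100a6 averaged 126 ± 29.5 against 189 ± 47.9, and Cyb5a 316 ± 66.9 against 512 ± 49.1. Of these 3, Epas1 and Cyb5a had no overlap between doses.

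In DKO cells some of the like genes rose with dose as Cd24a did, and others overlapped between doses. Cyp11a1 and Ier3 averaged 52.7 ± 5.56 and 241 ± 88.1 at 10 ng/ml, against 14.8 ± 1.68 and 23.8 ± 12.1 at 2.2 ng/ml, without overlap. They correlated with Cd24a over the 12 DKO arrays at 0.871 and 0.901. At day 0, day 2 and 2.2 ng/ml all DKO arrays of Cyp11a1 and most of Ier3 lay at or below the guide. These r values thus rest mainly on readings at background and the raised 10 ng/ml group. Gstk1 (1.52-fold), Batf (1.45-fold), Nts (1.47-fold, below the guide) and Epas1 (1.74-fold) also had every DKO array at 10 ng/ml above those at 2.2 ng/ml. S100a6, Dock5, Cyb5a and Il10 overlapped. Il10 stayed at 8.33 ± 0.80 and 8.74 ± 1.23 at these doses in DKO cells, and its r over the DKO arrays was -0.01. All DKO arrays of Il10 lay below the guide, so its course there is not resolved. The genes most opposite to Cd24a were the urea transporter Slc14a1 (r = -0.873), Jade2 (-0.873), the RNA-binding protein Rbm38 (-0.848), Pdlim5 (-0.840) and Ipcef1 (-0.832). Slc14a1 averaged 158 ± 39.1 in DKO cells with 2.2 ng/ml, against 45.4 ± 13.6 in WT cells.

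**Figure D3:**
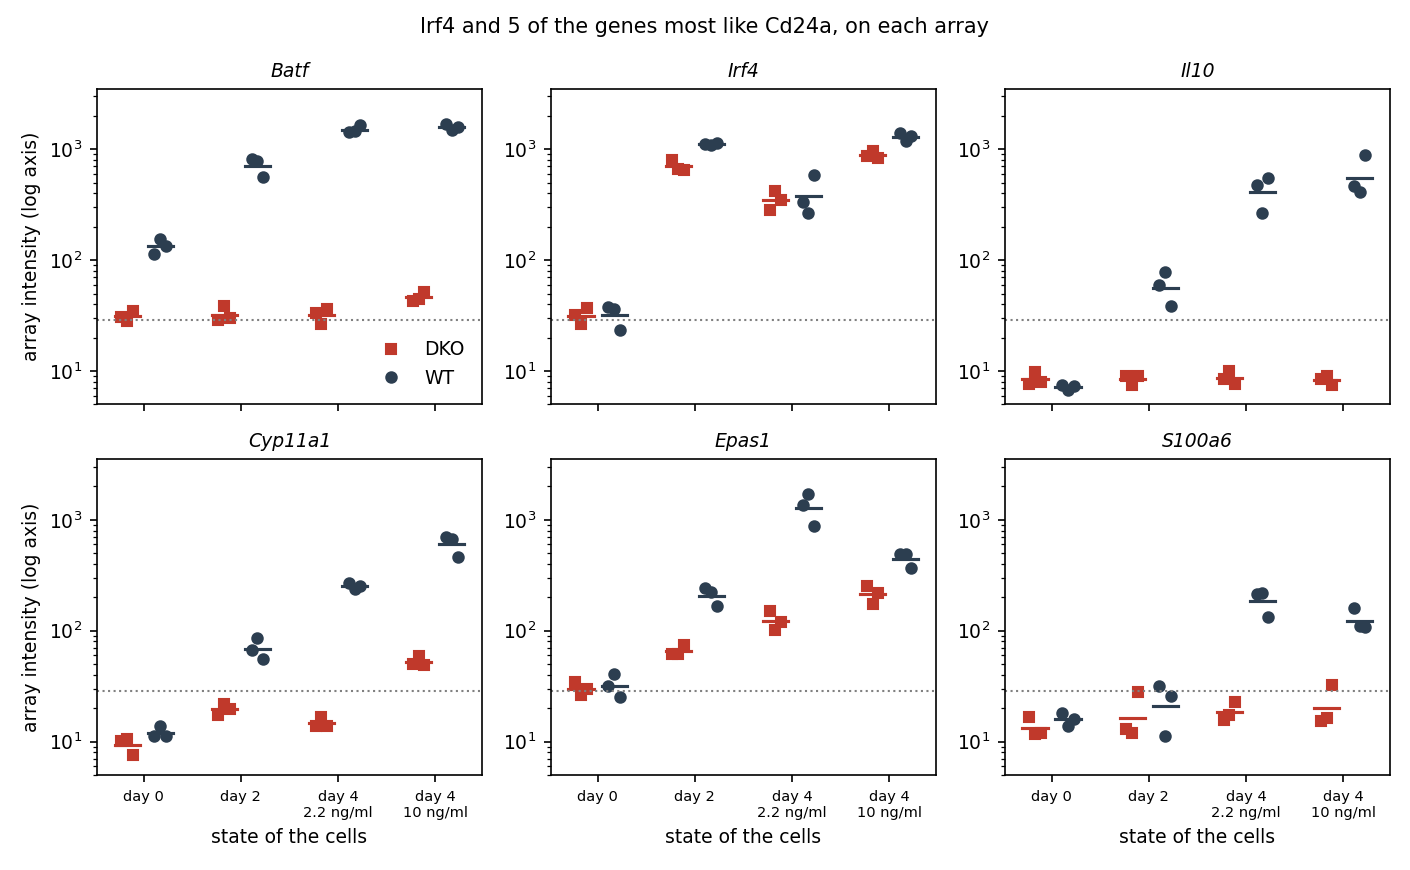
Intensity (log axis) of Batf, Irf4, Il10, Cyp11a1, Epas1 and S100a6 on each array by state, DKO as red squares left of WT as dark circles, with means of log2 values as bars and the background guide dotted. Epas1 and S100a6 in WT cells average 449 and 126 with 10 ng/ml, against 1314 and 189 with 2.2 ng/ml, while Irf4 averages 1304 against 398.

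The genes that lie beside Cd24a on the chromosome were read next, 5 measured protein-coding genes on either side in RefSeq's order for GRCm38.p6, a set picked after the values of Cd24a were known. Of these 10 neighbours, 0 were called higher in DKO cells in any state. Lower calls numbered 0 at day 0, 1 at day 2, 2 with 2.2 ng/ml and 3 with 10 ng/ml by limma, and 1, 4, 2 and 5 neighbours had an unadjusted p under 0.05 in either direction. Over all genes the shares called lower in these states were 0.01%, 1.68%, 2.06% and 6.09%. All 5 neighbours before Cd24a (Scml4, Sobp, Pdss2, Bend3 and Mtres1) missed the test in each genotype comparison.

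The lower calls were all on the other side. Prdm1, which encodes the repressor Blimp-1, averaged 14.9 ± 1.63 in DKO cells against 73.9 ± 13.3 in WT cells at 2.2 ng/ml (log2 difference -2.30, adjusted p = 8.65e-09), and 25.0 ± 3.46 against 131 ± 10.9 at 10 ng/ml (-2.40, adjusted p = 1.07e-09). Crybg1 averaged 134 ± 13.5 in DKO and 327 ± 80.9 in WT cells at 2.2 ng/ml (-1.26, adjusted p = 0.000194), and 142 ± 30.7 and 346 ± 21.5 at 10 ng/ml (-1.31, adjusted p = 3.59e-05). It was also called at day 2 (-0.92, adjusted p = 0.0093), a call lost in 2 of 17 alternatives for the processing or the arrays used. Averaged over its probe sets instead of read from the brightest, Crybg1 differed by -0.34 at day 2 (adjusted p = 0.289), and by -0.60 and -0.75 with 2.2 and 10 ng/ml. With values below the guide set to it, Prdm1 differed by -1.35 at 2.2 ng/ml. Rtn4ip1, a mitochondrial protein gene, fell by 0.60 at 10 ng/ml (adjusted p = 0.00935) and lost that call in 1. Qrsl1 and Atg5, the other two genes of that side, were not called. In WT cells Prdm1 rose with dose (0.84, adjusted p = 0.00242), unlike Cd24a.

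**Figure D4:**
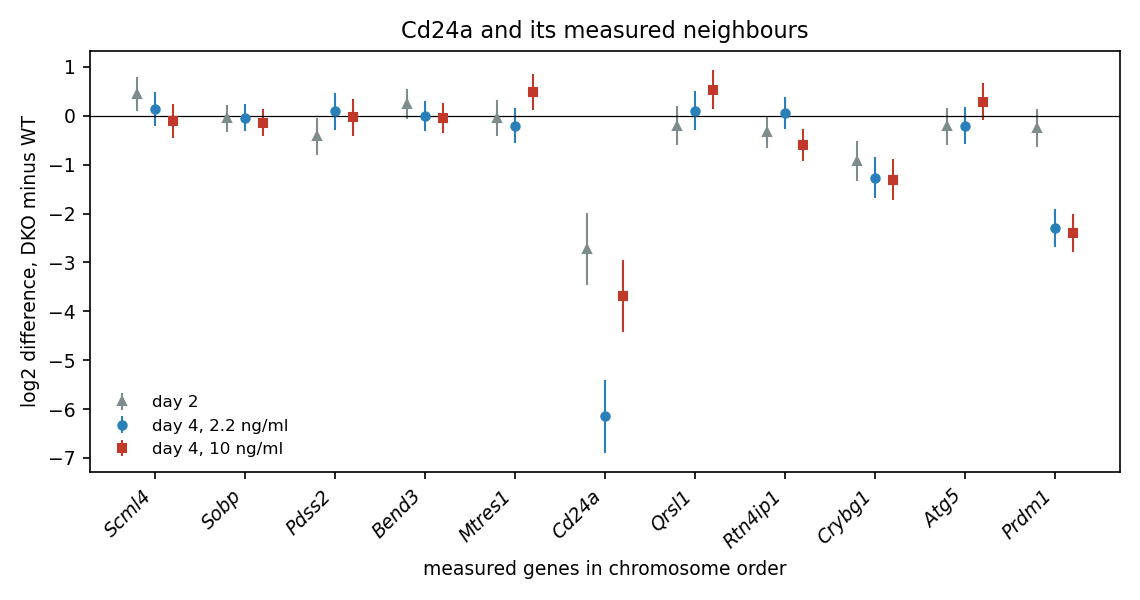
Log2 difference, DKO minus WT, of Cd24a and its 10 measured neighbours in chromosome order at day 2 (triangles), 2.2 ng/ml (circles) and 10 ng/ml (squares), with 95% intervals. Cd24a lies lowest in each state, and of the neighbours Prdm1, at -2.30 and -2.40 at day 4, lies nearest to it.

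Transcripts listed for ligands and signalling partners of CD24 gave 0, 0, 0 and 1 lower calls in DKO cells over the 4 states, and their proteins were not measured. Beside the lists below, 0.01%, 1.68%, 2.06% and 6.09% of all genes were called lower in DKO cells over the 4 states. Called higher were 0.0552%, 1.03%, 1.65% and 6.68%. In the WT dose comparison 7.52% of all genes were called lower at 10 ng/ml and 7.64% higher. The list is broad, and Sirpa, a receptor of CD47, and Selplg, another ligand of P-selectin, are not ligands of CD24. Of its 18 genes, 14 were measured. In naive cells 0 were called (2 at an unadjusted p under 0.05). At day 2, 2 were called higher in DKO cells, the Src-family kinase Fyn (0.61) and Selplg (0.59), the P-selectin ligand PSGL-1, whose call was lost in 6 of 17 alternatives. With 2.2 ng/ml 1 was called higher, Fyn (0.44, adjusted p = 0.0283), lost in 6.

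With 10 ng/ml 5 genes of this list were called higher in DKO cells and 1 lower, and the median of the 14 was 0.07, against 0.03 over all genes. Fyn averaged 287 ± 29.3 in DKO and 129 ± 2.22 in WT cells (log2 difference 1.15, adjusted p = 6.83e-08). Sirpa, a receptor of CD47, averaged 73.9 ± 14.3 against 30.0 ± 5.56 (1.30, adjusted p = 1.73e-05). Ptpn6, the phosphatase SHP-1 that acts below Siglecs, averaged 520 ± 32.7 against 342 ± 40.2 (0.61, adjusted p = 0.000515). Hmgb1, a danger signal that CD24 binds, averaged 177 ± 31.3 against 95.8 ± 19.1 (0.89, adjusted p = 0.0103; lost in 2 of 17 alternatives). Ptpn11 (0.47) and Selplg (-0.55) were the other called genes, each lost in 3. Siglecg, the receptor of CD24 on leukocytes, differed by -0.08 and was not called.

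The machinery that makes the GPI anchor gave no genotype call. Of 28 listed genes 27 were measured and 0 passed in any of the 4 genotype comparisons by limma, with 2, 4, 1 and 9 at an unadjusted p under 0.05 over the 4 states in the same order. Its median difference at 2.2 ng/ml was -0.05. In WT cells 3 rose with dose, Piga (1.05, adjusted p = 6.55e-05), Pign (0.53; lost in 5 of 17 alternatives) and Dpm1 (0.48; lost in 4). Of all genes, 7.64% were called higher in that comparison. The median dose difference of the 27 was -0.04, and that of all genes was -0.04.

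Other GPI-anchored surface proteins, 19 measured of 24 listed, moved in both directions. In naive cells 0 were called (6 at an unadjusted p under 0.05). At day 2 Cd160 (1.33; lost in 1 of 17 alternatives), Ly6e (0.71; lost in 2) and Cd52 (0.46; lost in 6) were called higher in DKO cells. With 2.2 ng/ml Cd48, a ligand of 2B4, was called lower, at 175 ± 25.7 in DKO against 332 ± 57.5 in WT cells (-0.92, adjusted p = 0.00144), and Izumo1r, the folate receptor 4 of T cells, higher (0.52, adjusted p = 0.0478; lost in 8 of 17 alternatives). With 10 ng/ml Prnp, the prion protein gene, was called lower (52.4 ± 12.8 against 183 ± 35.3; -1.81, adjusted p = 3.96e-07), as was the complement regulator Cd55 (11.1 ± 2.51 against 25.3 ± 1.80, both below the guide, so its order is not resolved; -1.21, adjusted p = 0.000355), while Cd52 (0.53) and Ly6e (0.57; lost in 1) were called higher. The median of the 19 was 0.06 at 2.2 and -0.01 at 10 ng/ml. Between doses in WT cells 4 of the 19 were called lower at 10 than at 2.2 ng/ml, Cd48 (-0.92, adjusted p = 0.000372), Ly6e (-0.91), Thy1 (-0.54) and Cd52 (-0.37; lost in 6 of 17 alternatives). Another 3 were called higher, Prnp (1.06, adjusted p = 0.000514), Izumo1r (0.77) and Cd55 (0.66; lost in 8).

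Enzymes of mucin-type O-glycosylation and sialylation, all 28 listed being measured, gave 0 calls at day 0 (0 at an unadjusted p under 0.05), 1 lower at day 2, 5 lower with 2.2 ng/ml, and 6 lower and 3 higher with 10 ng/ml. Their medians were 0.01, -0.14, -0.06 and 0.00, against 0.00, 0.04, 0.00 and 0.03 over all genes. The sialyltransferase St3gal1, which caps core 1 O-glycans and was picked out after its values were seen, was the single day 2 call. It averaged 139 ± 15.6 in DKO and 368 ± 26.2 in WT cells there. With 2.2 ng/ml it averaged 127 ± 7.29 in DKO and 608 ± 21.0 in WT cells (-2.26, adjusted p = 3.95e-12), and at 10 ng/ml 354 ± 25.7 against 557 ± 15.8 (-0.65, adjusted p = 0.000288). Averaged over its probe sets, it differed by -0.70 at day 2 and -1.46 with 2.2 ng/ml. That average gave -0.30 with 10 ng/ml, and the call was lost (adjusted p = 0.189), in 1 of 17 alternatives.

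Gcnt1, the enzyme that branches O-glycans to core 2, averaged 20.8 ± 1.83 in DKO and 105 ± 55.8 in WT cells at 2.2 ng/ml (-2.19, adjusted p = 2.98e-06), and 48.8 ± 4.65 against 134 ± 40.8 at 10 ng/ml (-1.42, adjusted p = 0.00028). Cmas, which activates sialic acid for transfer, fell by 0.78 and 1.09 at these doses (adjusted p = 0.000475 and 1.49e-06). B4galt5 (-0.77) and St3gal6 (-0.94) were the other calls at 2.2 ng/ml, each lost in 1 of 17 alternatives. Galnt1 and Galnt7, which start O-glycan chains, were higher in DKO cells at 10 ng/ml, by 1.36 (adjusted p = 2.68e-07) and 1.04 (adjusted p = 0.000133).

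Cd24a marks immature thymocytes, and other genes of that stage were read with those of T cell maturation, 14 measured of 18. At day 2 1 gene was called higher in DKO cells, the homing receptor Ccr7 (1.09), and at 2.2 ng/ml 2 were, Ccr7 (1.07) and the gut and thymus homing receptor Ccr9 (2.03). With values below the guide set to it, Ccr9 differed by 0.55 at 2.2 ng/ml and was not called. With 10 ng/ml Cd69 (2.48), Klf2 (1.05) and Ccr9 (0.95, below the guide in both genotypes) were called higher, and Dntt, the template-free DNA polymerase of immature lymphocytes (-2.20, and -0.63 with values below the guide set to it), S1pr1 (-1.29) and the chromatin organizer Satb1 (-0.81) lower. The median of the 14 was 0.14 at 2.2 and 0.05 at 10 ng/ml. In naive cells 0 were called (0 at an unadjusted p under 0.05).

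Of 9 measured markers of TH2 cells, which these cultures favour, 0 were called in naive cells (0 at an unadjusted p under 0.05). Called lower in DKO cells were 6 at day 2, 6 with 2.2 ng/ml and 9 with 10 ng/ml, and none was called higher. The 3 that missed the test at 2.2 ng/ml were Il4 (-0.96), Il13 (-0.66) and Il5 (0.21). The call of Il24 at 2.2 ng/ml (-2.02) was lost in 2 of 17 alternatives, and its difference was -1.32 without WT 2.2 ng/ml replicate 3 and -0.69 with values below the guide set to it. At 10 ng/ml the call of Nfil3 (-0.70) was lost in 3 and that of Il5 (-2.24) in 1, where it differed by -0.50 with values below the guide set to it. Their medians were -1.23, -1.47 and -1.73 in the last 3 states. In WT cells 6 were called higher at 10 than at 2.2 ng/ml and 0 lower, while the Cd24a arrays lay lower at 10 ng/ml. Il13 averaged 2108 ± 817 in WT cells with 10 ng/ml, against 86.04 ± 71.1 with 2.2 ng/ml (log2 difference 4.85, adjusted p = 2.31e-10), and Il24 1249 ± 264 against 55.7 ± 50.04 (4.83, adjusted p = 4.55e-10). Without WT 2.2 ng/ml replicate 3 these 2 differences were 5.49 and 5.53.

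**Figure D5:**
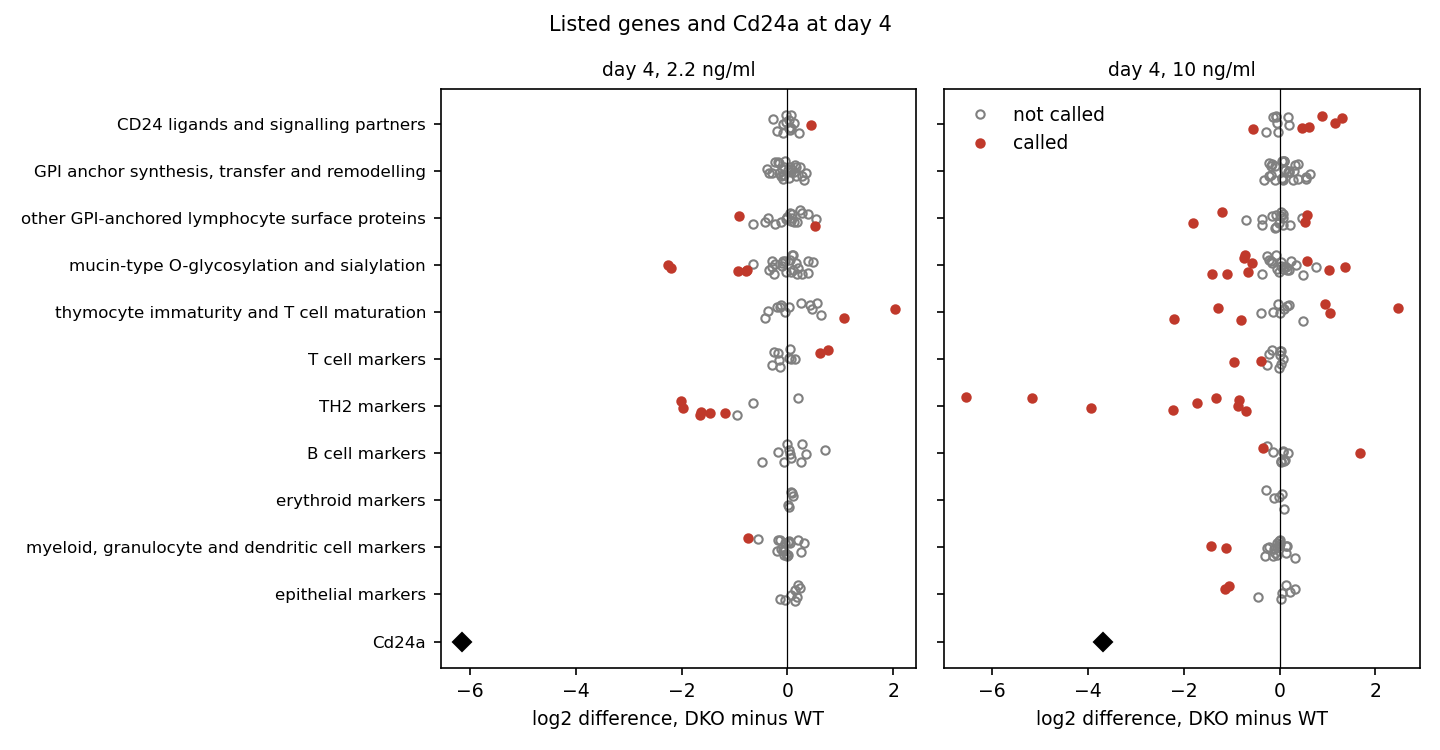
Log2 difference, DKO minus WT, of each measured gene of the 11 lists at day 4 with 2.2 ng/ml (left) and 10 ng/ml (right); filled red points passed the test, open points did not, and the black diamond is Cd24a. At 2.2 ng/ml Cd24a, at -6.15, lies beyond every listed gene, and at 10 ng/ml Il24, Il13 and Il4 lie below its -3.69.

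The T cell markers gave 0 genotype calls at day 0 (0 at an unadjusted p under 0.05), 3 higher in DKO cells at day 2, 2 higher with 2.2 ng/ml and 2 lower with 10 ng/ml, with medians within 0.15 of 0. At day 2 these were Cd3g (0.68), Cd5 (0.65; lost in 3 of 17 alternatives) and Cd3d (0.49; lost in 10). With 2.2 ng/ml they were Cd5 (0.77) and Cd6 (0.61; lost in 2), and with 10 ng/ml Cd2 (-0.96) and Cd28 (-0.40; lost in 9). Other cells that carry CD24 were looked for through their markers. Summed intensity of the 11 measured B cell markers at 2.2 ng/ml was 203 to 224 on the DKO arrays and 190 to 197 on the WT arrays, and at 10 ng/ml it was 228 to 259 and 168 to 183. Cd79a and Ms4a1 stayed below the guide in every group, at 9.11 to 20.7 and 6.17 to 7.80, while Ighm lay above it in every group, at 38.5 to 49.2, and 1 or 2 of the 11 did so per group. The median log2 difference of the 11 at 10 ng/ml was 0.07, against 0.03 over all genes. Cd79b, the brightest in DKO cells there, averaged 88.8 ± 27.9, against 27.2 ± 4.15 in WT cells (1.68, adjusted p = 2.7e-07). This gap makes up most of that between the sums. Cd79b was also the single call at day 2 (0.73; lost in 9 of 17 alternatives), 0 passed at day 0 and 2.2 ng/ml (1 and 3 at an unadjusted p under 0.05), and Ebf1, below the guide, was called lower at 10 ng/ml (-0.35; lost in 10 of 16). Of the 5 measured erythroid markers 0 were called in any genotype comparison (0 at an unadjusted p under 0.05), none had a group mean above 32.4, and their sum was 103 to 122 on DKO and 102 to 111 on WT arrays at 2.2 ng/ml.

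The 19 measured myeloid, granulocyte and dendritic cell markers summed higher in WT cells at day 4, in a sum that weighs the brightest markers most. Their median log2 difference was -0.04 at 2.2 and -0.06 at 10 ng/ml, against 0.00 and 0.03 over all genes. The sum was 588 to 615 on DKO and 678 to 899 on WT arrays at 2.2 ng/ml, and 738 to 794 and 931 to 954 at 10 ng/ml. The brightest was Cst3, at 291 ± 15.9 in DKO and 493 ± 95.7 in WT cells at 2.2 ng/ml (-0.74, adjusted p = 0.00122). Fcgr3 (-1.43) and Ly6g (-1.11; lost in 3 of 16 alternatives) were called lower in DKO cells at 10 ng/ml, and 0 were called at day 0 or day 2 (2 and 4 at an unadjusted p under 0.05). Lyz2, Csf1r, Itgam and Mpo had no group mean above 22.6. Cd68 lay above the guide in every group, at 56.1 to 81.6, and S100a8 and S100a9 reached 29.3 and 31.9 in naive DKO cells, and 2 to 4 of the 19 exceeded the guide per group. Of the 8 epithelial markers Krt18 (-1.15) and Epcam (-1.06, and -0.24 with values below the guide set to it) were called lower in DKO cells at 10 ng/ml, where the sums were 142 to 166 on DKO and 175 to 219 on WT arrays. In the other states 0 were called (1, 2 and 0 at an unadjusted p under 0.05), and at 2.2 ng/ml the sums overlapped. The part of these groups of markers, those of B cells included, in the Cd24a difference was not tested. Intronless copies of the Cd24 gene are known in the mouse, and binding of their transcripts to these probes was not tested.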

How the data were processed

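RNA from 24 mouse T cell samples was hybridised to Affymetrix gene arrays. The authors deposited 1 value per probe set and array, an intensity on a linear scale from 1.95 to 14644.9, made with RMA per the submitters' processing notes; its software version, the annotation build and the scan dates are not stated. RMA sets the probe values of all arrays to 1 distribution, so a shift shared by all genes is largely removed. Medians of the deposited probe set values still ran from 26.4 to 31.6 between arrays.

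Values were taken to log2. Of 35556 probe sets, 21789 had 1 gene symbol in GEO's platform annotation, 1621 several and 12146 none listed; the brightest of each gene was kept (19938 genes). limma 3.58.1 in R 4.3.3 fitted 1 mean per group (16 residual and 7.49 prior degrees of freedom), with Benjamini-Hochberg adjustment over all genes. A call is an adjusted p under 0.05. Tests were checked on simulated data.

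Cd24a and the 11 gene lists (165 of 190 genes measured) were chosen with earlier results of these data known. Named genes were Cd24a, Batf, Batf3, Irf4, the 10 most and 5 least correlated genes, up to 3 ranked on each side in each genotype comparison (predicted, small RNA, receptor segment and Y-linked genes skipped), up to 4 called genes per list with the smallest p at 10 ng/ml, and the brightest markers of other cells. Genes named beyond this rule, the chromosomal neighbours and Ccr7, Cd48 and St3gal1 among them, were chosen after their values were seen. The few arrays per group limit the precision. The labels do not say whether a replicate number marks a shared mouse or culture, and the main fit did not pair samples by it. Deviations of same-numbered arrays in different groups correlated at a mean of 0.005 (-0.15 to 0.26), which cannot exclude such pairing. Alternatives covered the normalization, the filter on dim genes, the probe sets used, the variance model, array weights, the samples fitted, a replicate block and each array left out. A further one, chosen after seeing the data, set values below the background guide to it.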

Additional observations from a re-analysis of the deposited data

Results flagged for a closer look

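For Cd24a, all 3 DKO arrays at 10 ng/ml lay above, and all 3 WT arrays at 10 ng/ml below, the arrays of the same genotype at 2.2 ng/ml, and the DKO change exceeded the WT change by 2.46 ± 0.51 on the log2 scale. This difference was not tested for Cd24a, which was selected on its levels over the groups and on its genotype differences. The p-values within genotypes are not independent of that choice. Within genotypes the DKO change was 1.63 (adjusted p = 0.00386), or 1.14 without DKO 2.2 ng/ml replicate 1 (adjusted p = 0.0506), with 2 of the 3 DKO arrays at 2.2 ng/ml at or below the background guide. The WT change was -0.83 and missed the threshold (adjusted p = 0.14).

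Listed genes with a change that differed between DKO and WT cells by limma's test of the difference (adjusted p under 0.05 over all genes) are given here as DKO change minus WT change on the log2 scale. They were 27 of 165 for dose and 8 of 165 for day 2 against day 0, and of all 19938 genes 6.94% and 1.05% passed. For dose, 10 against 2.2 ng/ml, the list of CD24 ligands and signalling partners gave 0.71 for Fyn (adjusted p = 0.00713), 1.28 for Sirpa (adjusted p = 0.00285) and 0.82 for Ptpn6 (adjusted p = 0.00211). GPI-anchored proteins gave -1.16 for Prnp (adjusted p = 0.0118) and 0.99 for Cd48 (adjusted p = 0.0115). Enzymes of O-glycosylation and sialylation gave 1.60 for St3gal1 (adjusted p = 6.46e-07), 1.16 for Galnt1 (adjusted p = 0.000723), 0.94 for Galnt7 (adjusted p = 0.0192), 0.87 for C1galt1, -0.85 for Galnt6 and -0.84 for St3gal3 (adjusted p from 0.0305 to 0.0328).

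Genes of thymocytes and T cell maturation gave -2.15 for Dntt (adjusted p = 5.17e-06), -1.92 for S1pr1, 1.92 for Cd69, -1.08 for Ccr9 and -0.90 for Ccr7 (adjusted p from 0.00188 to 0.0259). T cell markers gave -1.03 for Cd2 (adjusted p = 0.000261) and -0.77 for Cd5 (adjusted p = 0.0173). TH2 markers gave -4.54 for Il24, -4.52 for Il13, -2.98 for Il4, -2.44 for Il5, 1.12 for Ccr8 and 0.94 for Nfil3 (adjusted p from 9.74e-07 to 0.0359). Markers of other cells gave 1.33 for Cd79b, -1.09 for Krt18 and -1.25 for Epcam (adjusted p from 0.00153 to 0.00372). Readings below the guide enter several of these values. The genotype differences of Dntt, Ccr9, Il5 and Epcam shrank with values below the guide set to it, as given above.

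Between day 0 and day 2 the same difference was -3.56 for Il24, -3.08 for Il4, -2.25 for Il13, -1.08 for Ccr4, -1.18 for St3gal1, 1.31 for Cd160, 1.01 for Ccr7 and 0.75 for Siglech, a marker of plasmacytoid dendritic cells (adjusted p from 0.00042 to 0.0447). The group means of Siglech ran from 13.3 to 23.2, below the guide throughout, so its change is not resolved.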

How the results depend on the processing

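Over 18 comparisons of Cd24a, 299 of 318 alternatives kept the direction and the side of the threshold or moved the value by less than 0.44 on the log2 scale, the residual SD. Several alternatives could not move a Cd24a value. These were the replicate block, the variance model, the dim-gene filter, the compared groups alone and, as Cd24a has 1 probe set, the choice of probe sets. For comparisons given as a description they count as kept by design. In the 16 alternatives that kept readings below the guide, Cd24a held place 1 at 2.2 ng/ml, places 6 to 11 at day 2, 23 to 32 at 10 ng/ml and 43 to 755 in naive cells. With values below the guide set to it, chosen after seeing the data, its places were 2, 4, 18 and 4623. DKO minus WT was then -0.011 at day 0 and -5.37 at 2.2 ng/ml, the DKO dose change 0.85 (adjusted p = 0.0867), DKO 2.2 ng/ml against day 2 0.11 (adjusted p = 1) and the difference in dose change 1.68. With only the compared groups fitted, DKO day 2 against day 0 (0.69, adjusted p = 0.0091), DKO 10 ng/ml against day 2 (1.17, adjusted p = 0.00622) and the WT dose change (-0.83, adjusted p = 0.00575) passed. DKO 10 ng/ml against day 2 also passed without dim genes in the fit (1.17, adjusted p = 0.043) and with 2 WT arrays left out together (1.17, adjusted p = 0.0411).

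With single arrays left out, DKO minus WT ran from -3.11 to -2.26 at day 2 and from -6.67 to -5.66 at 2.2 ng/ml, the DKO dose change from 1.14 to 2.15, and the difference in change between genotypes from -2.56 to -1.71 for day 2 and from 1.97 to 2.98 for dose. The DKO dose change missed the threshold without DKO 2.2 ng/ml replicate 1 (adjusted p = 0.0506). Leaving out that array turned DKO 2.2 ng/ml against day 2 from -0.46 to 0.031 (range -0.98 to 0.031), and leaving out replicate 2 turned DKO 2.2 ng/ml against day 0 from 0.24 to -0.28 (range -0.28 to 0.73); neither passed.

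A fit with the replicate block kept each Cd24a call, for example 1.63 (adjusted p = 0.00492) for the DKO dose change and -0.83 (adjusted p = 0.15) for the WT one. Every group holds each replicate number, so this block could change the errors but not the values. Of the 10 genes most like Cd24a, 3 stayed among the first 10 with Spearman's rho, and 3 with Pearson's r over the 12 WT arrays. Calls of listed genes over the 4 genotype comparisons and the WT dose comparison numbered 116 (101 to 130). Calls over all genes, DKO against WT, numbered 13 (2 to 34) at day 0, 541 (298 to 716) at day 2 and 739 (462 to 858) at 2.2 ng/ml. Values near the background guide have little precision, so the order of the 4 lowest groups is not resolved.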
